A study of Mus musculus with 40 samples.

Results

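The effect of repeated cocaine on gene expression in the nucleus accumbens was measured in female mice without ovaries and without hormone replacement. The comparison takes the 10 libraries labelled ovariectomized, placebo, out of 40 in the series: 5 from mice given cocaine (animals 125, 127, 133, 135 and 139) and 5 from mice given saline (animals 121, 123, 129, 131 and 137). Libraries were chosen by these labels alone, and each is 1 mouse.

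The nucleus accumbens is the part of the ventral striatum in which cocaine, by blocking the dopamine transporter, raises dopamine at its synapses. Most of its neurons are GABA-releasing projection neurons that carry either the D1 or the D2 dopamine receptor. Estradiol, which acts through the receptors encoded by Esr1 and Esr2, comes chiefly from the ovaries, and the placebo mice had these removed and received no estradiol in their place.

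The series holds C57BL/6J mice in 8 groups of 5: ovariectomized females with placebo, ovariectomized females with estradiol, intact females and intact males, each with cocaine or with saline. Handling lasted 3 days. Cocaine mice then received a daily dose of 20 mg/kg on days 2 to 6 and of 10 mg/kg on day 1 and on day 7, and accumbens tissue was taken after withdrawal. RNA came from left and right punches. The groups used here are ovariectomized placebo females with cocaine or saline, and, to set the response beside others, ovariectomized estradiol females and intact females with cocaine or saline. The length of withdrawal, the age of the mice and the dose of estradiol are not given in the sources used here. Intact mice had no surgery and carry a separate range of animal numbers, so ovariectomy and cohort cannot be told apart.

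Each library is a set of values that sum to 1000000 and were treated as TPM. TPM are transcripts per 1000000, with reads divided by transcript length. How the values were made is not given in the sources used here. There were 16513 to 16873 genes above 0 in cocaine mice and 16724 to 17012 in saline mice. Depth is unknown from TPM, so no counting error can be given. Xist, the RNA that silences an X chromosome in female cells, was present in every library, at 63.3 to 186 TPM with cocaine and 46.1 to 178 TPM with saline, and the Y-linked Ddx3y and Eif2s3y were listed at 0 in all 10. Libraries within the cocaine group correlated with a median r of 0.965 over log2 values, within the saline group of 0.953, and between the groups of 0.965.

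Among these 10 libraries, 3 stood apart. In saline 137 the median gene lay at 3.19 on the log2(TPM + 0.5) scale, against 4.0 to 4.27 in the cocaine libraries and 4.10 to 4.21 in the other saline libraries, and ribosomal protein genes took 19.5% of its TPM. In cocaine 139 the ribosomal RNA precursor Rn45s took 15.8% of the TPM, against 0.782% to 2.56% in the other cocaine libraries and 1.25% to 3.54% in the saline libraries. Saline 121 had 11800 TPM of Mbp, which encodes myelin basic protein, against 2850 to 4790 TPM in the cocaine libraries and 2930 to 4370 TPM in the other saline libraries, and 4.18 TPM of the neuropeptide gene Cartpt against 72.6 to 170 TPM with cocaine and 38.4 to 222 TPM in the other saline libraries. Cocaine 125 had a median r within the 10 libraries of 0.9517, close to saline 121 (0.9516) and above saline 137 (0.9195). Its septal and subpallial neuron markers summed to 241 TPM, against 105 to 174 TPM in the other cocaine libraries and 65.5 to 168 TPM with saline. The cocaine differences and relative medians below are given also without saline 121, saline 137 or both where that turned the direction or moved a value by over 1.5 times. Cocaine 125 was left out only in the ranges with 1 library left out.

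**Figure D1:**
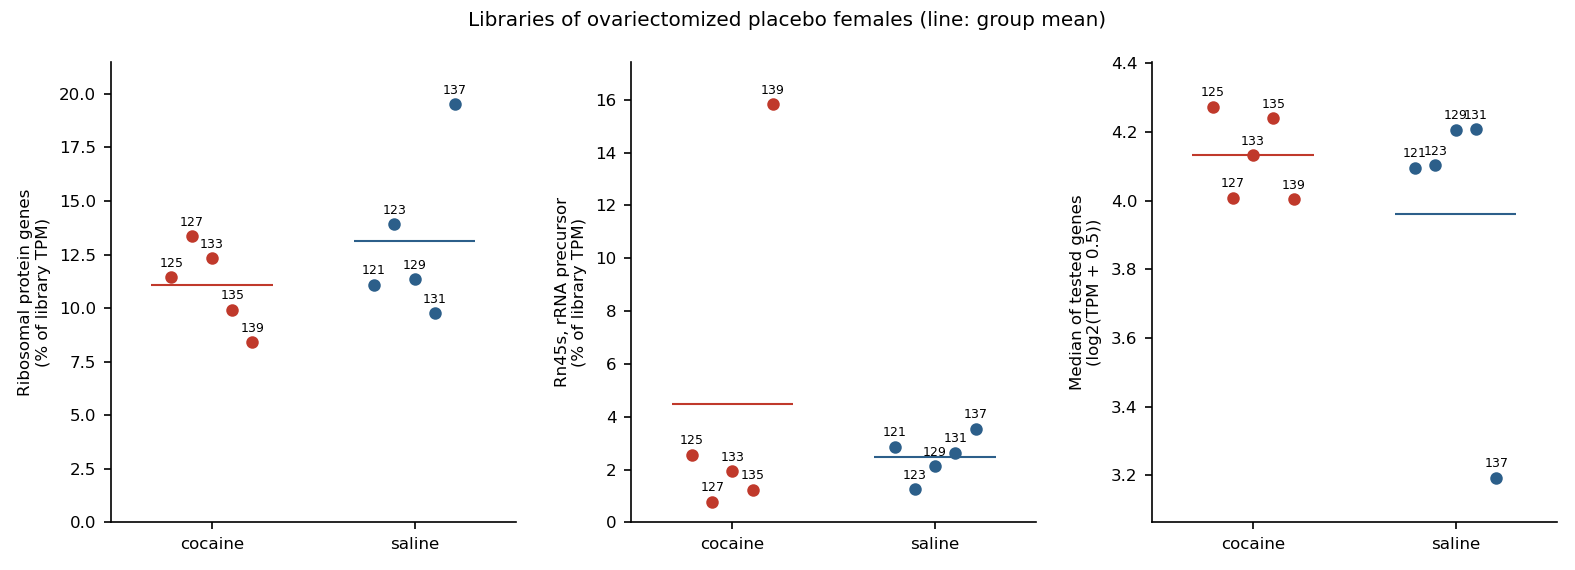
Each point is 1 library of ovariectomized placebo females, cocaine left and saline right, with the animal number and the group mean as a line. The panels show the share of TPM in ribosomal protein genes (%), the share in Rn45s (%) and the median log2(TPM + 0.5) of tested genes. Saline 137 is highest in ribosomal protein share (19.5%) and lowest in median (3.19), and cocaine 139 is highest in Rn45s (15.8%).

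The share of ribosomal protein genes, 84 genes in all, averaged 11.1% ± 1.96 with cocaine and 13.1% ± 3.87 with saline (SD over 5 mice each). The difference of -2.04 percentage points had an exact permutation p of 0.365, two-sided, where 0.00794 is the smallest p that 5 against 5 can give. Without saline 137 it was -0.441 percentage points, so that library carried most of it.

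No gene passed the test for a cocaine difference in ovariectomized placebo females. Of 15196 genes that reached 1 TPM in 5 or more of all 40 libraries, limma called 0 (0%) at an adjusted p under 0.05, and the smallest Benjamini-Hochberg adjusted p was 0.996. At an unadjusted p under 0.05 there were 125 genes (0.823% of those tested), 76 higher with cocaine (0.5%) and 49 lower (0.322%). If no gene differed, a fraction of 0.05 of the genes would be expected there, more than was found. That split depended on scaling: it was 109 higher and 147 lower with each library set to the same median, 153 and 131 after quantile normalization, 92 and 162 with the ribosomal protein share as a covariate, and 213 and 230 with libraries weighted by their quality.

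The size of difference that the test could have shown is set by the spread within all 8 groups, which the model pools over 40 libraries. The standard error of a log2 difference was 0.33 for the median gene, with quartiles of 0.28 and 0.38. For 10882 genes (71.6%) the 95% interval lay wholly between -1 and 1 on the log2 scale, and for 15022 genes (98.9%) it lay between -2 and 2.

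The log2 differences of all tested genes were centred above 0, with a median of 0.15, quartiles of -0.01 and 0.26, and 74.2% above 0. This shift came with saline 137: without that library the median was -0.02. Differences of single genes below keep the shift, while each gene list is described by its relative median, that is, its own median less the median of all tested genes. Of 12 genes beyond 2 in either direction, 10 were small nucleolar or microRNA genes, with standard errors of 1.07 to 3.01.

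**Figure D2:**
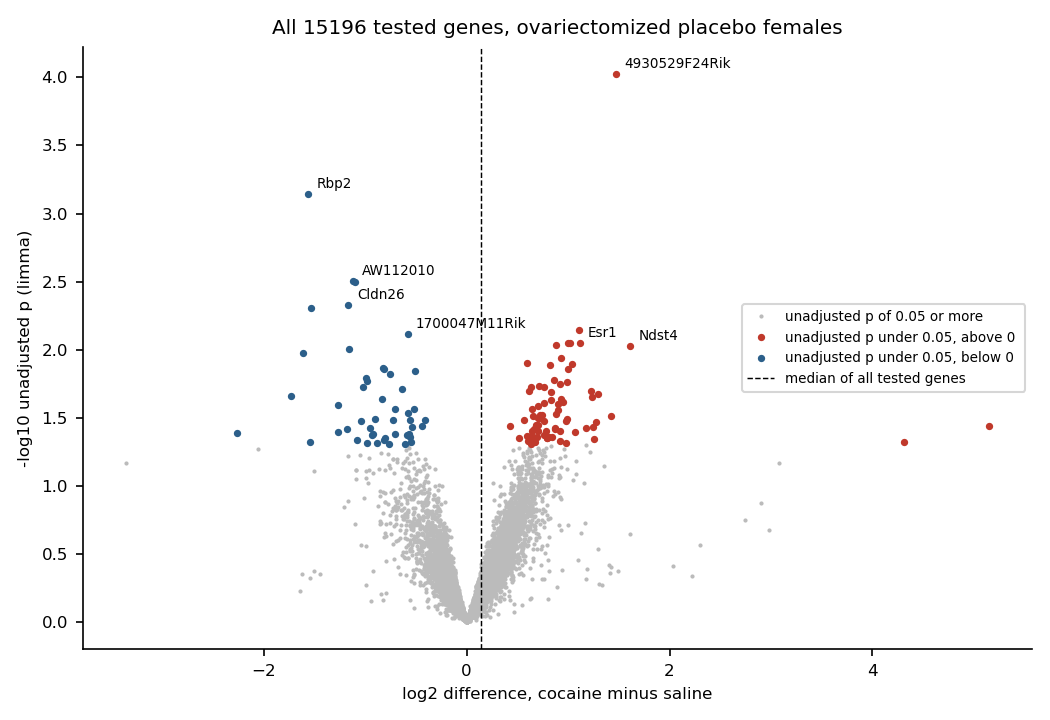
Each point is 1 of 15196 tested genes, with the log2 difference, cocaine minus saline, across and -log10 of limma's unadjusted p upward. Red points are the 76 genes above 0 and blue points the 49 genes below 0 with an unadjusted p under 0.05, none of which passed adjustment, and the dashed line is the median of all genes (0.15).

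The genes named next had the smallest p in each direction, 12 higher and 12 lower with cocaine, and none of them passed, since every adjusted p was 0.996 or more. The smallest p above 0 belonged to 4930529F24Rik, an RNA transcribed antisense within Nrg3, the gene of the ligand neuregulin 3 (mm10, chromosome 14, 38898302 to 38958794, plus strand, listed by RefSeq as Nrg3os). It had 1.75, 0.259, 1.06, 1.53 and 2.72 TPM with cocaine and 0.386, 0, 0.215, 0 and 0.155 TPM with saline. Cocaine mice were higher in 4 of 5 cases than every saline mouse, and cocaine 127 lay inside the saline range. The log2 difference was 1.48 ± 0.34 (SE; 95% interval 0.79 to 2.16, unadjusted p = 9.49e-05). Counting by strand is not given in the sources used here, so its reads and those of Nrg3 cannot be told apart.

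Esr1, which encodes estrogen receptor alpha (chromosome 10, 4611593 to 5005614), had 3.91, 1.73, 1.93, 2.07 and 2.12 TPM with cocaine and 0.474, 0.543, 1.30, 1.43 and 0.466 TPM with saline. All 5 cocaine mice lay above all 5 saline mice, whose values were near the lower limit of the filter. Cocaine 125 lay far above the other cocaine mice and was also highest for Rxfp3 and Cpne7 below. Its summed TPM of cholinergic neuron markers was 202, against 64.7 to 152 in the other cocaine mice and 49.9 to 152 with saline. The part of such markers in these differences was not tested. The log2 difference was 1.11 ± 0.41 (95% interval 0.29 to 1.93, unadjusted p = 0.00897) and did not pass. It stayed between 0.94 and 1.26 when any 1 library was left out and was 0.85 without saline 121 and 137.

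Rxfp3, the receptor for the neuropeptide relaxin-3 (chromosome 15, 11033717 to 11037991), had 3.86, 2.24, 1.40, 1.77 and 0.564 TPM with cocaine and 0.249, 0.461, 1.23, 0.943 and 0.445 TPM with saline. The groups overlapped through cocaine 139. It differed by 1.00 ± 0.36 on the log2 scale (unadjusted p = 0.00887).

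Cpne7, a calcium-dependent phospholipid-binding protein of the copine family (chromosome 8, 123117374 to 123135182), had 56.2, 25.3, 36.3, 32.8 and 38.4 TPM with cocaine and 8.96, 23.6, 29.2, 11.5 and 24.5 TPM with saline. Only cocaine 127 fell inside the saline range, below saline 129. Its log2 difference of 1.02 ± 0.37 (unadjusted p = 0.00892) was 0.86 without saline 121 and 137.

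Camk2d, the delta subunit of calcium/calmodulin-dependent kinase II (chromosome 3, 126596302 to 126846326), had 50.6, 47.0, 38.7, 74.8 and 54.0 TPM with cocaine and 15.5, 34.3, 40.2, 29.6 and 17.7 TPM with saline. The 2 lowest values were those of saline 121 and saline 137, and cocaine 133 lay below saline 129. The log2 difference of 1.00 ± 0.39 (unadjusted p = 0.014) was 0.58 without those 2 saline libraries.

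Ndst4, an enzyme that sulfates heparan chains (chromosome 3, 125404076 to 125728899), had 6.17, 5.38, 3.72, 28.7 and 20.2 TPM with cocaine and 0.987, 7.85, 4.8, 2.94 and 1.16 TPM with saline. Its high values came from cocaine 135 and 139, and the other 3 cocaine mice lay within the saline range. The log2 difference of 1.61 ± 0.59 (unadjusted p = 0.0094) was 0.90 without saline 121 and 137. In cocaine 135 and 139, Slc17a7, the vesicular glutamate transporter of cortical neurons, was at 338 and 423 TPM, against 3.82 to 22.9 TPM in the other cocaine mice, and it ranged from 4.87 to 611 TPM with saline, highest in saline 121. Its part in the Ndst4 difference was not tested.

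Dlx6as2, an RNA of the Dlx5 and Dlx6 locus of forebrain GABA neuron regulators (chromosome 6, 6863797 to 6865150, overlapping Dlx6 and another antisense RNA), had 0.406 to 1.45 TPM with cocaine and 0 to 0.316 TPM with saline. The groups did not overlap, at levels near the lower limit of the filter. Its log2 difference was 1.11 ± 0.39. Another long transcript, 2810011L19Rik (Tunar in RefSeq), had 15.3 to 21.9 TPM with cocaine and 4.61 to 19.3 TPM with saline, a difference of 0.88 ± 0.32 that was 0.37 without saline 121 and 137. The others of the 12 were D830030K20Rik (0.93 ± 0.35), 4930432K21Rik (0.60 ± 0.23), 4930487H11Rik (1.04 ± 0.40) and Gm3696 (0.82 ± 0.32), of which D830030K20Rik and Gm3696 belong to a family of similar copies on chromosome 14 and are uncertain.

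Among genes lower with cocaine, Rbp2, a retinol-binding protein known from the intestine (chromosome 9, 98486115 to 98509781), was listed at 0 in all 5 cocaine mice, against 1.30, 0, 1.12, 1.66 and 1.76 TPM with saline. The groups overlapped through saline 123, which was also at 0. AW112010, a long RNA known from immune cells (chromosome 19, 11047612 to 11055808), had 1.67, 2.24, 2.07, 5.17 and 5.22 TPM with cocaine and 8.98, 11.2, 5.49, 3.98 and 7.51 TPM with saline. Saline 131 lay below cocaine 135 and 139, and the log2 difference was -1.12 ± 0.36 (95% interval -1.84 to -0.40, unadjusted p = 0.00315).

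Dmkn, which encodes the secreted protein dermokine, known from skin (chromosome 7, 30763756 to 30781063), had 30, 36.3, 30.6, 15.3 and 27.8 TPM with cocaine and 66.1, 43.6, 38.7, 72.9 and 82.9 TPM with saline. All cocaine mice lay below all saline mice, with a log2 difference of -1.10 ± 0.35 (95% interval -1.81 to -0.39, unadjusted p = 0.00321) that was -0.87 without saline 121 and 137.

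Cldn26 (Tmem114 in RefSeq), a claudin-like membrane protein (chromosome 16, 8409275 to 8425136), had 1.30, 1.08, 0.589, 0.624 and 0.303 TPM with cocaine and 2.18, 3.10, 1.51, 2.15 and 2.58 TPM with saline. These groups did not overlap either, with saline 129 nearest to the cocaine mice, and differed by -1.17 ± 0.39 on the log2 scale (unadjusted p = 0.0047).

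Gpx6, a glutathione peroxidase (chromosome 13, 21312125 to 21319624), had 5.22, 5.80, 7.78, 2.69 and 2.97 TPM with cocaine and 28.3, 3.76, 4.24, 16.5 and 18 TPM with saline. The saline mice split into 3 high and 2 within the cocaine range, and the log2 difference of -1.16 ± 0.43 was -0.47 without saline 121 and 137.

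Lrrc10b, a leucine-rich repeat protein enriched in striatum (chromosome 19, 10455371 to 10457473), had 113, 118, 141, 60.9 and 74.7 TPM with cocaine and 250, 138, 147, 216 and 133 TPM with saline. Cocaine 133 lay above saline 123 and 137, and the other 4 cocaine mice lay below every saline mouse. Its log2 difference of -0.82 ± 0.32 (unadjusted p = 0.0139) was -0.76 without saline 121 and 137.

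The other 6 of the 12 lower genes were 1700047M11Rik (-0.58 ± 0.21), 2010001M06Rik (-0.83 ± 0.32), the keratin gene Krt10 (-0.51 ± 0.20), the secretin receptor Sctr (-0.76 ± 0.30), Hist1h4j (-1.53 ± 0.51) and Rnaset2a (-1.61 ± 0.60). Hist1h4j, a histone H4 gene, was listed at 0 in every cocaine mouse and in saline 121 and 123. Histone H4 genes have near-identical copies, as does Rnaset2a, so both values are uncertain. The gene 2010001M06Rik (Abhd11os in RefSeq) lies opposite Abhd11.

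**Figure D3:**
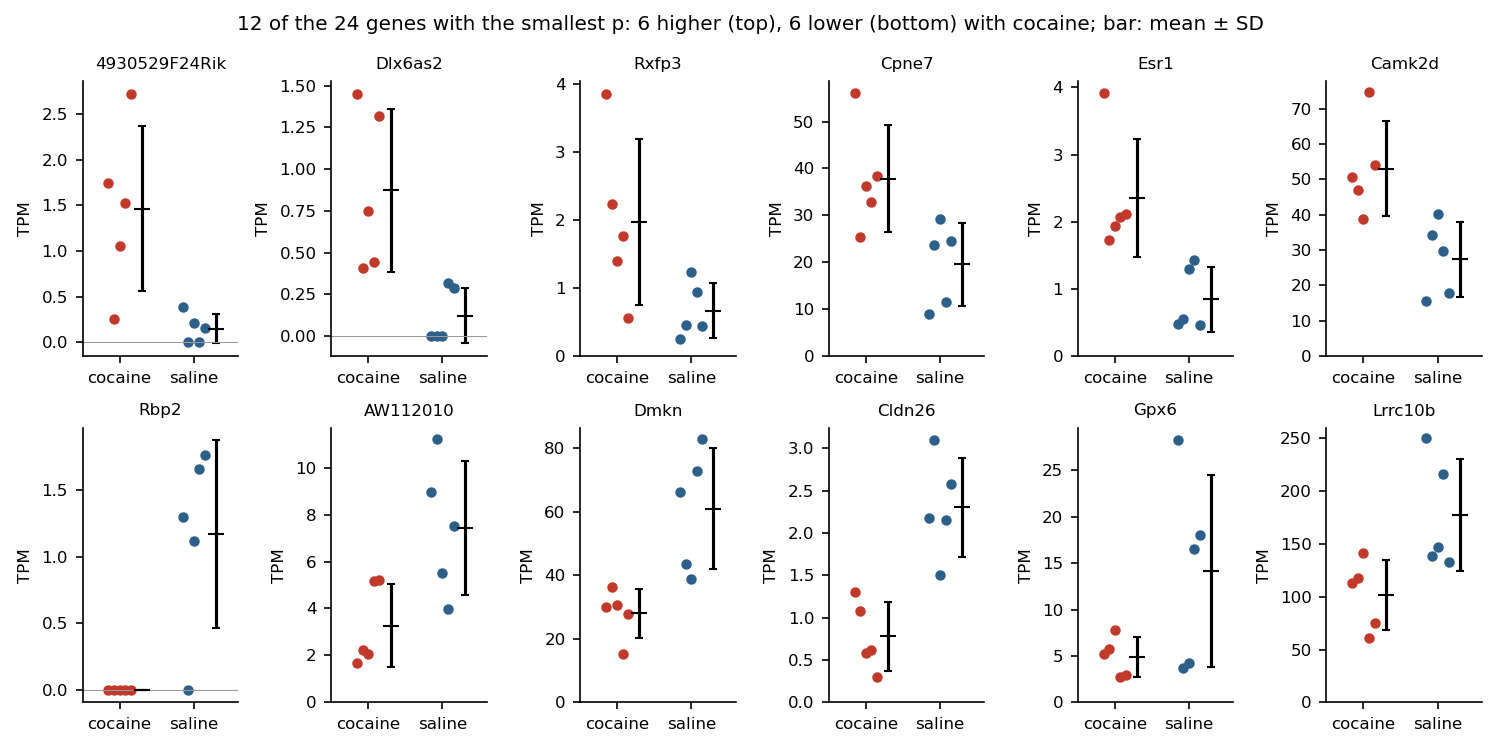
TPM of 6 genes higher and 6 genes lower with cocaine among those with the smallest p, in ovariectomized placebo females; each point is 1 mouse, cocaine left and saline right, and the bar is the mean ± SD over 5 mice. The groups overlap in 8 of the 12 panels, and in Esr1, Dlx6as2, Dmkn and Cldn26 they do not.

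Over all 15196 genes, 20 (0.132%) had groups that did not overlap, 15 with every cocaine mouse above every saline mouse (0.0987%) and 5 below (0.0329%). With random labels a fraction of 0.00794 of genes would be expected to have such groups, more than was found. Genes of this kind were picked out after their values were seen, and none passed adjustment. Beside Esr1 and Dlx6as2, the 15 included Sp8, a transcription factor of interneuron development, at 2.31 to 4.49 TPM with cocaine and 0.904 to 1.85 TPM with saline. Supt3, a subunit of the SAGA coactivator complex, had 15.1 to 22 TPM with cocaine and 11 to 14.6 TPM with saline, and Actr5, a subunit of the INO80 remodelling complex, had 6.92 to 9.08 TPM with cocaine and 3.5 to 6.84 TPM with saline. Beside Dmkn and Cldn26, the 5 lower genes were Spata17, Mylpf, a muscle myosin light chain, and Brms1, a component of SIN3 histone deacetylase complexes, which had 32.4 to 42.5 TPM with cocaine and 42.8 to 63.0 TPM with saline.

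Genes were grouped by 22 lists of pathways and 15 lists of cell type markers, and in no list did any member pass. Of the steroid receptors and enzymes, 12 of 15 found in the table were tested, 9 lay above 0, and Esr1 was 1 member with an unadjusted p under 0.05. The relative median was 0.06, and 0.00 without saline 121 and 137. Pgr, the progesterone receptor and a textbook target of estrogen receptor alpha, had 8.90 to 14 TPM with cocaine and 6.29 to 14 TPM with saline (0.14 ± 0.27, or 0.01 without saline 121 and 137). Esr2, Cyp19a1, which encodes aromatase, and Greb1 were under the filter, with averages of 0.286, 0.356 and 0.172 TPM with cocaine and 0.316, 0.0753 and 0.133 TPM with saline.

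Immediate-early genes, which respond within minutes to neuronal activity, had 24 members tested, 20 of them above 0 and 16 above the median of all genes. The relative median was 0.15, against 0.04 without saline 137, 0.02 without saline 121 and 137, and -0.10 with libraries weighted by their quality. Fos had 11.2, 22.1, 7.6, 35.3 and 14 TPM with cocaine and 2.91, 23.6, 5.91, 4.49 and 4.51 TPM with saline. Every cocaine mouse lay above 4 of the 5 saline mice, and saline 123 lay above 4 of the 5 cocaine mice. The log2 difference was 1.28 ± 0.58 (95% interval 0.10 to 2.46, unadjusted p = 0.0339) and did not pass, and it was 0.82 without saline 121 and 137. Fosb, whose truncated product is known to build up in the striatum under repeated cocaine, had 5.49 to 7.35 TPM with cocaine and 1.6 to 8.63 TPM with saline (0.28 ± 0.45), and Fosl2 gave 0.33 ± 0.45. Without saline 121 and 137 both turned negative, Fosb at -0.36 and Fosl2 at -0.31. Bdnf, a neurotrophin gene, gave 0.33 ± 0.62, or 0.61 without those 2 libraries.

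Genes of striatal projection neurons lay below the rest: of 20 tested, 4 were above 0 and 1 was above the median of all genes, with a relative median of -0.36. Setting each library to the same median cannot move a relative median, so that scaling is no check of it. The value was -0.30 after quantile normalization, -0.42 with the ribosomal protein share as a covariate and -0.15 with weighted libraries. With any 1 library left out it ran from -0.41 to -0.20, and it was -0.46 without saline 121 and 137. Ppp1r1b, the dopamine-regulated phosphoprotein DARPP-32, had 1340, 1440, 1820, 760 and 1030 TPM with cocaine and 1180, 1530, 1570, 1890 and 2270 TPM with saline. Cocaine 135 and 139 were lowest and the groups overlapped (-0.43 ± 0.26, unadjusted p = 0.1). The summed TPM of the list was 4770 and 4740 in cocaine 135 and 139, against 5430 to 7360 in the other cocaine mice and 5080 to 10100 with saline. In the same 2 mice the summed TPM of cortical excitatory neuron markers was 1050 and 1220, against 579 to 687 in the other cocaine mice and 645 to 2430 with saline, and their part in the difference was not tested. Bcl11b gave 0.06 ± 0.30 and Foxp1 -0.14 ± 0.33, both transcription factors of these neurons, and without saline 121 and 137 they were at -0.33 and -0.47. In bulk tissue, fewer cells of a type and less RNA per cell cannot be told apart.

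Of 10 D1 neuron genes, 4 lay above 0, and the relative median was -0.20, or -0.34 without saline 121 and 137. Drd1a, the D1 receptor, gave -0.11 ± 0.30, and Tac1, the substance P precursor, -0.04 ± 0.23; without those 2 libraries they were at -0.56 and -0.38. Pdyn, the prodynorphin gene, had 117 to 212 TPM with cocaine and 44.7 to 308 TPM with saline, with the lowest value in saline 121. Its log2 difference was 0.31 ± 0.41, and -0.45 without saline 121 and 137. D2 neuron genes had a relative median of -0.28 with 4 of 10 above 0, and Drd2 gave -0.15 ± 0.37, Adora2a, an adenosine receptor, -0.23 ± 0.27 and Penk, the enkephalin precursor, -0.17 ± 0.25. Without saline 121 and 137 these were -0.56 for Drd2, -0.38 for Adora2a and -0.50 for Penk.

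Of 16 neuropeptide genes tested, 12 lay above 0, with a relative median of 0.30 that ranged from -0.04 to 0.55 with 1 library left out, the highest without saline 137. Cartpt, a peptide gene known for its response to cocaine, had 158, 136, 170, 139 and 72.6 TPM with cocaine and 4.18, 159, 222, 38.4 and 97.2 TPM with saline. The groups overlapped widely and saline 121 was far below the rest. The log2 difference was 1.18 ± 0.55 (unadjusted p = 0.0375), and 0.28 without saline 121. Nts, the neurotensin gene, gave 0.70 ± 0.51 with all libraries and -0.16 without saline 121.

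Members of the dopamine and monoamine list were centred on the median of all genes (relative median 0.01, or -0.05 without saline 121 and 137, with 10 of 12 above 0). Htr2c, a serotonin receptor, had 66.4 to 165 TPM with cocaine and 20.5 to 99.5 TPM with saline. The 2 lowest values were those of saline 121 and 137, and its log2 difference of 0.87 ± 0.41 (unadjusted p = 0.0378) was 0.09 without them. Of 12 opioid and cannabinoid genes, 9 lay above 0, with a relative median of 0.04, which was -0.07 without saline 137 and 0.08 without saline 121 and 137. Pnoc, the nociceptin precursor, had 14.8, 11.1, 6.35, 8.60 and 3.8 TPM with cocaine and 2.44, 2.35, 5.17, 4.31 and 9.70 TPM with saline. Saline 137 lay above 3 of the 5 cocaine mice, and the log2 difference was 0.87 ± 0.40 (unadjusted p = 0.0381), or 1.01 without saline 121 and 137. The receptors Oprm1 and Oprk1 gave 0.35 ± 0.37 and 0.27 ± 0.38, and turned to -0.15 and -0.29 without saline 121 and 137.

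GABA system genes had 14 of 16 members above 0 and a relative median of 0.18, which was -0.05 without saline 121 and 137. Gad2, an enzyme of GABA synthesis, had 154 to 282 TPM with cocaine and 79.1 to 303 TPM with saline, and the 2 lowest of its values were again those of saline 121 and 137. Glutamate receptors and scaffolds had 15 of 18 above 0 and a relative median of 0.09, or -0.06 without saline 137 and -0.05 with weighted libraries.

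Lists of housekeeping processes moved with saline 137. Cytosolic ribosomal proteins had 1 of 45 members above 0 and a relative median of -0.36, which was -0.06 without saline 137. Oxidative phosphorylation subunits had 5 of 44 above 0 and a relative median of -0.30, which was 0.00 without it. For the chromatin modifiers, circadian clock, heat shock and chaperone, interferon, synaptic vesicle, vesicle proton pump, extracellular matrix and cocaine literature lists, the relative medians lay between -0.02 and 0.11, and between -0.12 and 0.22 without saline 121 and 137. Glucocorticoid-responsive genes had 7 of 15 above 0 and a relative median of -0.18, which was -0.12 without saline 137, and MHC genes 3 of 13 and -0.33, which was 0.16 without saline 121 and 137.

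Markers of other cell types varied between mice of the same group. Oligodendrocyte markers had 2 of 16 members above 0 and a relative median of -0.32, which was 0.03 without saline 121 and 137, and their summed TPM ran from 6830 to 9430 with cocaine and from 6470 to 20400 with saline. Septal and subpallial neuron markers had 9 of 10 above 0 and a relative median of 0.28. It was 0.26 after quantile normalization, 0.23 with the ribosomal protein share as a covariate and 0.41 with weighted libraries. Without any 1 library it ran from 0.18 to 0.46. Their summed TPM was 105 to 241 with cocaine and 65.5 to 168 with saline. Dlk1, a transmembrane protein of that list, had 64.8, 43.3, 47.2, 36.4 and 18.9 TPM with cocaine and 0.678, 39.5, 58.0, 18.4 and 13.1 TPM with saline. The groups overlapped, and its log2 difference of 1.42 ± 0.63 was 0.51 without saline 121 and 0.16 without saline 121 and 137. Zic1, a transcription factor of the septum, gave 0.78 ± 0.53.

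Cortical excitatory neuron markers had 6 of 14 above 0 and a relative median of -0.31. It was 0.28 without saline 121 and 137, -0.705 without saline 137 and cocaine 139, and -0.66 with weighted libraries. Their summed TPM ran from 579 to 1220 with cocaine and from 645 to 2430 with saline. Blood markers had 1 of 7 above 0, a relative median of -0.61, which was -0.26 without saline 121 and 137, and summed TPM of 101 to 204 with cocaine and 106 to 335 with saline. Choroid plexus and ependyma markers had 3 of 12 above 0 and a relative median of -0.48, which was -0.11 without saline 137, 0.08 without saline 121 and 137, and 0.26 with weighted libraries. Of 14 vessel wall markers, 8 lay above 0 and 6 below. Kcnj8, a potassium channel of pericytes and the member of that list with an unadjusted p under 0.05, was among those below. It had 1.78 to 3.21 TPM with cocaine and 3.01 to 4.8 TPM with saline (-0.56 ± 0.27, unadjusted p = 0.0439). The part of these cell types in the differences of single genes was not tested. For the lists of astrocytes, oligodendrocyte precursors, endothelium, vessel wall, cholinergic neurons and interneurons the relative medians lay between -0.13 and 0.11. Without saline 121 and 137 the vessel wall list was at 0.23, cholinergic neurons at -0.30 and the other 4 between -0.04 and 0.15. Without saline 137 alone, endothelium was at -0.28. Leaving out saline 137 and cocaine 139 put the vessel wall list at -0.52 and endothelium at -0.35. Microglia markers had a relative median of -0.25 (-0.07 without saline 137) and pituitary markers of -0.26 (0.33 without saline 137). Markers of hypothalamic and thalamic neurons were at 0.16, which was 0.50 without saline 137 and 0.11 without saline 121 and 137, and ran from -0.10 to 0.50 with 1 library left out.

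**Figure D4:**
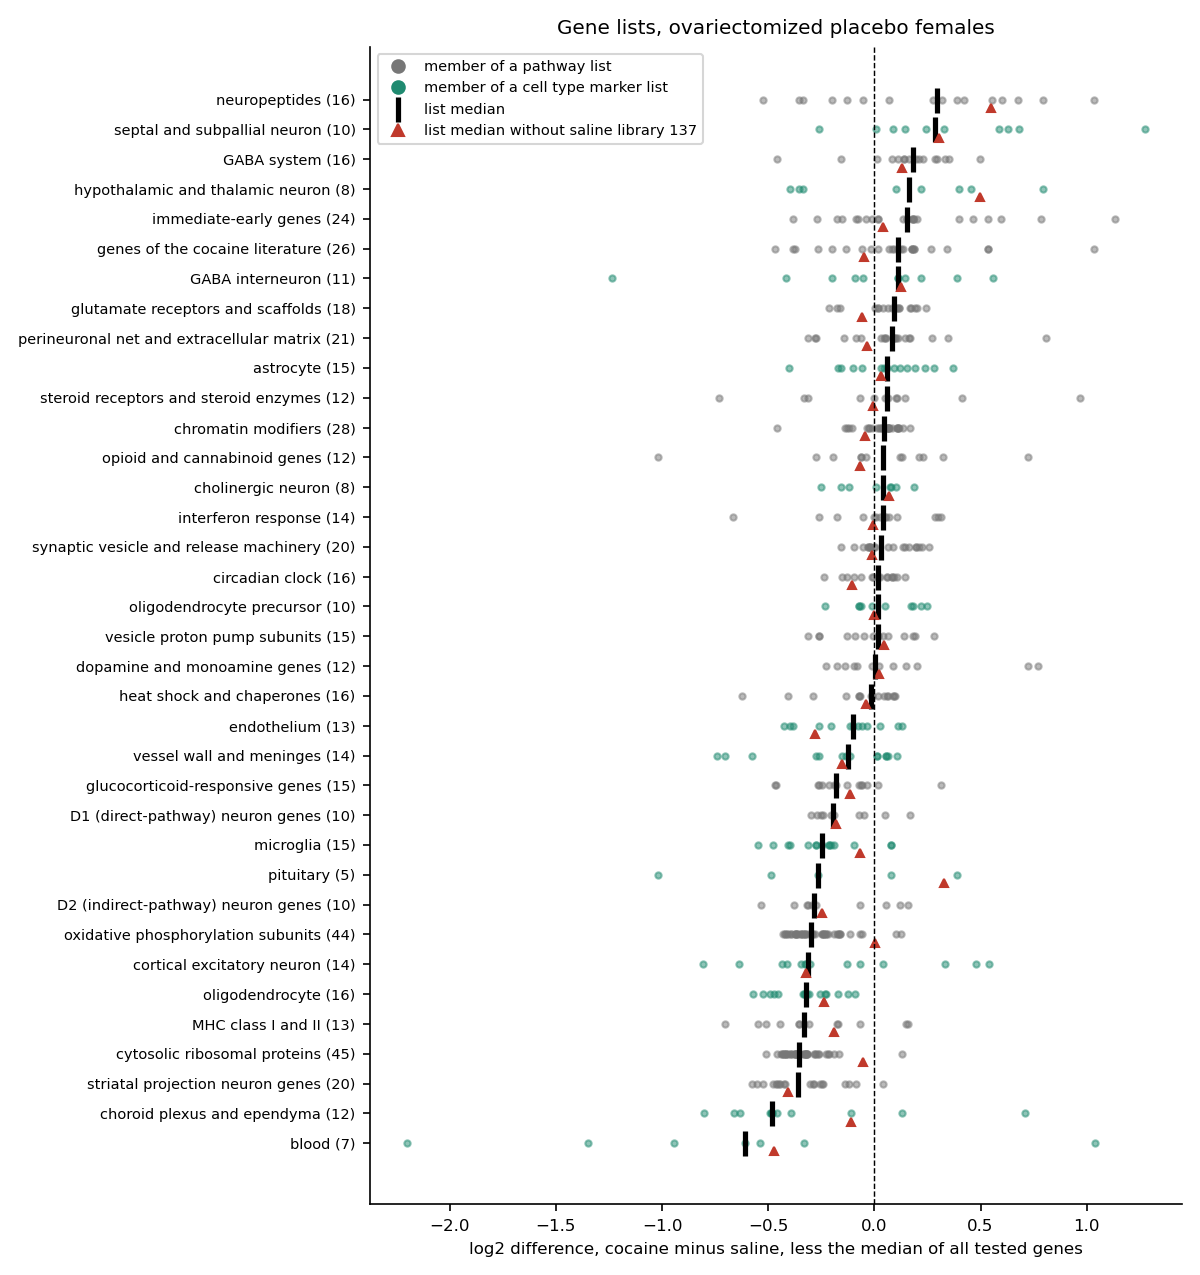
Each dot is 1 tested member of a gene list in ovariectomized placebo females, placed by its log2 difference, cocaine minus saline, less the median of all tested genes; grey dots belong to pathway lists and green dots to cell type marker lists, with the number of members in brackets. Black bars are list medians, and red triangles the medians without saline 137, which lie near 0 for ribosomal proteins (-0.06) and oxidative phosphorylation (0.00) and at -0.41 for striatal projection neuron genes.

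Whether the response to cocaine depended on estradiol replacement was asked by an interaction, the cocaine difference with placebo minus that with estradiol. No gene passed (0 of 15196, 0%; limma, smallest adjusted p = 0.156), while 4753 genes (31.3%) had an unadjusted p under 0.05, 4432 above 0 (29.2%) and 321 below (2.11%). The median of all genes for this interaction was 0.71, made up of 0.15 with placebo and -0.56 with estradiol. Estradiol cocaine mice 126 and 134 had ribosomal protein shares of 31.6% and 23.1%, against 10.7% to 11.1% in the other estradiol cocaine mice and 9.03% to 12.7% in estradiol saline mice. Without these 2 and saline 137 the median was 0.02 and 168 genes had an unadjusted p under 0.05, 73 above 0 and 95 below. With the ribosomal protein share as a covariate, 158 genes were above 0 and 228 below.

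The genes with the smallest p of this interaction and a positive difference were Ralyl, Camk2d, Mgat4c and Rxfp3. Camk2d averaged 53.0 ± 13.4 TPM with cocaine and 27.5 ± 10.7 TPM with saline in placebo mice (SD over 5 mice), and 32.4 ± 20.7 TPM with cocaine and 57.6 ± 8.63 TPM with saline in estradiol mice. The interaction was 2.12 ± 0.55. Ralyl, an RNA-binding protein, averaged 109 ± 27.9 TPM with cocaine and 72.8 ± 25.3 TPM with saline in placebo mice, and 77.5 ± 31.8 TPM with cocaine and 134 ± 21.3 TPM with saline in estradiol mice, an interaction of 1.5 ± 0.36. For Rxfp3 the interaction was 1.96 ± 0.52 and for Mgat4c 1.48 ± 0.39. In the other direction stood Smim5 (-2.31 ± 0.56), Hist3h2ba (-1.51 ± 0.38), 1700047M11Rik (-1.11 ± 0.29) and BC033916 (-2.04 ± 0.55). None of the 8 passed, with adjusted p = 0.156 for each. These differences keep the median shift of 0.71, and the fit includes saline 137 and estradiol cocaine 126 and 134.

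Esr1, outside those 8, averaged 2.35 ± 0.884 TPM with cocaine and 0.843 ± 0.480 TPM with saline in placebo mice. In estradiol mice it averaged 1.08 ± 0.817 TPM with cocaine and 1.75 ± 1.29 TPM with saline, and in intact females 2.78 ± 0.955 TPM with cocaine and 3.19 ± 1.29 TPM with saline. The cocaine difference of Esr1 was 1.11 with placebo, -0.54 with estradiol and -0.17 in intact females. Over all tested genes the median difference was 0.15, -0.56 and 0.03, so the Esr1 value with estradiol lay near that median. Neither interaction passed (1.66 ± 0.57 against estradiol, adjusted p = 0.156, and 1.28 ± 0.57 against intact females, adjusted p = 1). The medians of all genes for these interactions were 0.71 and 0.11.

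Against intact females the interaction asks whether the response differed between ovariectomized placebo and intact mice. Ovariectomy and cohort cannot be told apart in it. No gene passed (0 of 15196, 0%; limma, smallest adjusted p = 1), 83 had an unadjusted p under 0.05 (0.546%), 39 above 0 (0.257%) and 44 below (0.29%), and the median of all genes was 0.11. The smallest p above 0 was that of 1700028J19Rik, which averaged 1.88 ± 0.376 TPM with cocaine and 0.909 ± 0.237 TPM with saline in placebo mice, and 1.63 ± 0.562 TPM with cocaine and 3.27 ± 0.663 TPM with saline in intact females. Its groups did not overlap in placebo mice, and the interaction was 1.61 ± 0.46. Gm2721 (1.6 ± 0.50), 1700101I11Rik (1.54 ± 0.49) and 3110070M22Rik (1.28 ± 0.44) followed. Below 0 stood AY074887 (-1.73 ± 0.56), Cldn26 (-1.66 ± 0.55), E130201H02Rik (-1.82 ± 0.63) and 4930405J17Rik (-1.36 ± 0.49).

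**Figure D5:**
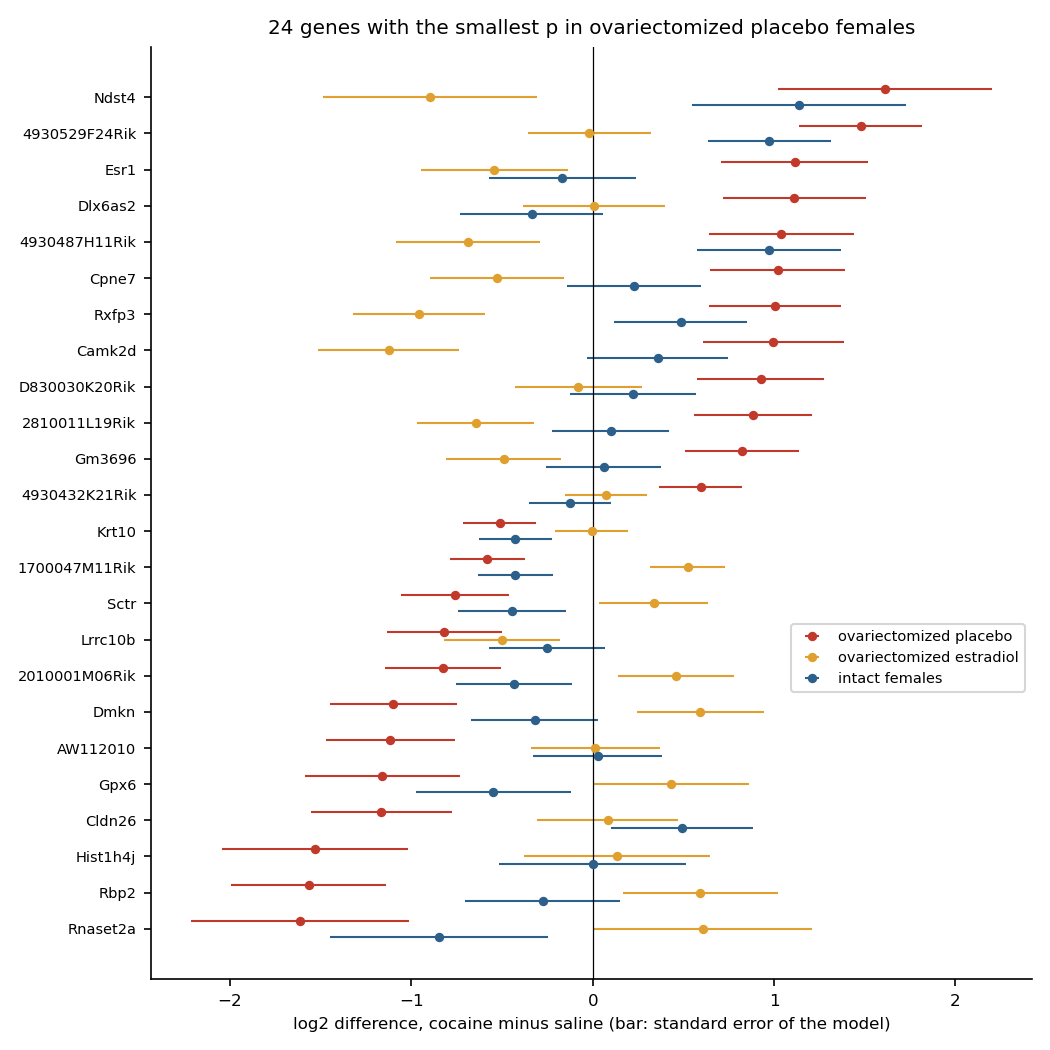
For the 24 genes with the smallest p in ovariectomized placebo females, points give the log2 difference, cocaine minus saline, and bars its standard error, in ovariectomized placebo, ovariectomized estradiol and intact females. The genes were chosen by their placebo values, so those lie farther from 0 by choice. For Camk2d the differences were 1.00 with placebo, -1.13 with estradiol and 0.36 in intact females. The medians of all tested genes were 0.15, -0.56 and 0.03.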

How the data were processed

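RNA of nucleus accumbens punches was sequenced from 40 mice, 1 library each; the labels name an AmpliSeq kit and a single shared lane. The deposited table is named for FPKM, but each column sums to 1000000, so the values were treated as TPM made by the authors. The submitters' processing notes list limma, DESeq2, Cuffdiff and Cufflinks (both 2.2.0), TopHat2 (2.0.9) and Bowtie2 (2.1.0.0), with build mm10; which of them made the table is not given in the sources used here, and the aligner's treatment of strand is not either. TPM keeps no depth, so precision comes from the spread between mice only.

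Of 23349 entries, 27 named by a date were left out. The 15196 genes that reached 1 TPM in 5 or more of 40 libraries were taken as log2(TPM + 0.5), a scale that understates the change of low genes. One model with a mean for each of 8 groups (32 residual degrees of freedom) was fitted in limma 3.58.1 (R 4.3.3, trend and robust options), with Benjamini-Hochberg adjustment over all genes, and checked on simulated data. Nothing in the labels tells whether mice shared a cage or litter. Coordinates are those of GENCODE M21 on mm10. Named genes are the 12 with the smallest p in each direction, the first 3 tested members of each list and any member at an unadjusted p under 0.05, and the 4 per direction of each interaction; any other was named after its values were seen. List members that the rule names are printed in part, and 1 gene is not reported here. The comparison and the gene lists were chosen with earlier results of these data known.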

Additional observations from a re-analysis of the deposited data

Results flagged for a closer look

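Among the cocaine and saline mice, 76 genes of the text and 4 measures of whole libraries were searched for a single library far from the other 4 of its group. Of 154 groups of values that varied, 13 held a gap of more than 0.71 of the group's range; chance alone gives such a gap in about 1 of 20 groups. For whole libraries these were the Rn45s share of cocaine 139 (15.8%, next 2.56%) and the median log2 value of saline 137 (3.19, next 4.10).

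In the cocaine group they were Esr1 in mouse 125 (3.91 TPM, next 2.12), Cartpt in mouse 139 (72.6 TPM, next 136), Gad2 in mouse 139 (154 TPM, next 252) and 1700047M11Rik in mouse 133 (9.21 TPM, next 13.2). In the saline group they were Mbp in mouse 121 (11800 TPM, next 4370), Nts in mouse 121 (3.66 TPM, next 48.4), Tac1 in mouse 121 (306 TPM, next 679), Rbp2 in mouse 123 (listed at 0, next 1.12 TPM), Zic1 in mouse 129 (22.2 TPM, next 14.6), E130201H02Rik in mouse 131 (0.345 TPM, next 1.43) and Xist in mouse 137 (46.1 TPM, next 124). Saline 121 accounts for 3 of the 13.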

How the results depend on the processing

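The cocaine difference in ovariectomized placebo females gave 0 genes past the threshold under 24 of 25 alternatives; the exception was leaving low values unfiltered, which called 1 gene, 2900093L17Rik, listed at 0 in every cocaine mouse and in saline 129, at 0.456 to 2.25 TPM in the other saline mice, and above 0 in 4 of 40 libraries (-1.23, limma adjusted p = 0.00412). The count at an unadjusted p under 0.05, 125, became 332 with no filter, 59 with a filter of 5 TPM, 256 with each library at the same median, 284 after quantile normalization, 254 with the ribosomal protein share as a covariate and 443 with weighted libraries. It became 71 without saline 121 and 137, an alternative chosen after seeing the data, as were those without 137 and 139, without 137, 126 and 134, and with Rn45s removed. Leaving out 1 library gave 86 to 238, the highest without saline 129, and 0 calls each time. The cause was not tested.

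The ribosomal protein difference ranged from -2.88 to -0.441 percentage points with 1 library left out, and was -1.33 for the written list of ribosomal protein genes.

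The placebo minus estradiol interaction gave 0 calls except with weighted libraries, which called 1700047M11Rik (-1.39, limma adjusted p = 0.0142, 1 gene). Its count at an unadjusted p under 0.05, 4753, became 3128 with ovariectomized groups alone, 2713 at the same median (952 above 0, 1761 below), 2409 after quantile normalization (1375 above, 1034 below), 386 with the covariate, 989 with weighted libraries (618 above, 371 below) and 168 without saline 137 and estradiol cocaine 126 and 134. Alone, leaving out saline 137 gave 1485, cocaine 135 gave 3092, estradiol cocaine 126 gave 1433 and estradiol cocaine 134 gave 1661, within a range of 1433 to 7123. The placebo minus intact interaction gave 0 calls throughout, and its 83 genes at an unadjusted p under 0.05 became 236 with no filter, 18 at 5 TPM, 128 at the same median, 132 after quantile normalization, 160 with the covariate and 971 with weighted libraries, and 70 to 104 with 1 library left out. It was not fitted on ovariectomized groups alone, which lack intact mice.

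No paired analysis was possible because every animal number occurs in 1 group only. With 5 mice a group and a median standard error of 0.33, differences above 1 on the log2 scale could also be missed. The largest example by p, 4930529F24Rik at 1.48 ± 0.34, had a limma adjusted p of 0.996. The absence of calls does not show that expression was the same.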

Other observations

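Oxtr, the oxytocin receptor, was picked out after its values were seen and did not pass; 74.2% of all tested genes lay above 0, as it did. It had 3.38, 2.46, 2.87, 7.58 and 6.72 TPM with cocaine and 0.973, 2.08, 2.86, 2.62 and 1.30 TPM with saline. Its high values came from cocaine 135 and 139, while cocaine 127 lay inside the saline range and cocaine 133 just above it. Cortical excitatory neuron markers summed to 1050 and 1220 TPM in cocaine 135 and 139. They summed to 579 to 687 TPM in the other cocaine mice and 645 to 2430 TPM with saline. Their part in the Oxtr difference was not tested. The log2 difference of Oxtr was 0.99 ± 0.40 (unadjusted p = 0.0173), or 0.64 without saline 121 and 137.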
